A study of Mus musculus with 16 samples.

Results

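The integrated stress response is described here through 10 genes, Atf4, Atf5, Ddit3, Trib3, Chac1, Asns, Psat1, Phgdh, Sesn2 and Eif4ebp1, chosen by name as known members of this response. All 10 were found among the 16934 genes of the raw count table. Cortical neurons were taken from C57BL/6 mouse embryos at embryonic day 15 to 16 and were grown without passage for 14 days in Neurobasal medium with B-27 Plus and L-glutamine. Loaded neurons had then received Atto488-labelled α-syn fibrils (aggregates of α-synuclein, the neuronal protein that builds up in Parkinson's disease) at 0.1 µM for 16 h, followed by a wash in PBS. Untreated neurons had received no fibrils. Each kind was then kept for 6 h either alone or with microglia, immune cells that reside in the brain. With 4 libraries for each of the 4 groups, the design crosses fibrils (untreated or loaded) with culture (alone or with microglia). All groups share the strain, the age and the culture medium. The labels give neither the source of the microglia nor the way they were parted from the neurons before RNA was isolated, so RNA of other cells can be part of each library. The series compares neurons with and without fibrils and with and without microglia, and the 10 genes are given here for both contrasts.

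The integrated stress response lowers general protein synthesis while it raises the output of a small set of stress genes. Kinases that sense unfolded protein in the endoplasmic reticulum, missing amino acids, viral RNA or lack of haem phosphorylate the translation initiation factor eIF2, and ribosomes then pass over short upstream reading frames and translate the messenger RNA of Atf4. ATF4 protein enters the nucleus and switches on genes for amino acid synthesis and uptake, together with genes that damp the response or lead to cell death. Atf4 and Atf5 are thus regulated largely in translation, and messenger RNA levels, the quantity measured here, do not show that step.

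ATF4 binds DNA in pairs with C/EBP proteins at the C/EBP-ATF composite element. Its core, TGATGNAAN, was looked for on both strands of the RefSeq promoters of assembly GRCm38.p6, each 300 bases long, from 250 bases before to 50 bases after a gene start. A promoter was listed for 9 of the 10 genes (Eif4ebp1 had none), as 11 windows. The letters were found in 3 of the 11 windows, from 3 of the 9 genes, against 3.954% of all 32851 promoters. The 3 genes were Chac1, Trib3 and Asns, and their windows are shown because they are the members with the element in the letters of the promoter. They read 5′ to 3′ on the gene's own strand, with the match in capitals. In Chac1 and Trib3 the match lies on the opposite strand (TGATGCAAC and TGATGTAAA when read there) and in Asns on the gene's strand (TGATGAAAC).
Chac1, chr2:119351003-119351102, plus strand: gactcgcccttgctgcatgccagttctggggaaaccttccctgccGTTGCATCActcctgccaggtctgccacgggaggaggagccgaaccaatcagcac
Trib3, chr2:152344029-152344057, minus strand: ttagctcaggTTTACATCAgccgggcggg
Asns, chr6:7693210-7693309, minus strand: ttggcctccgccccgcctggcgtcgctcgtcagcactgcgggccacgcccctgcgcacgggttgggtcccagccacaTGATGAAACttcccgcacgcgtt
The match covers positions -194 to -186 from the gene start in Chac1, -23 to -15 in Asns and 14 to 22 in Trib3. The cyclic AMP response element TGACGTCA was found in 1.79% of all promoters and the endoplasmic reticulum stress element in 0.119%, and neither was found in the windows of the 9 genes. These matches describe letters only, and their absence from a window says nothing about the factor.

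Total counts ranged from 6511516 to 13986374 per library, and between 10817 and 13079 genes were detected. Counts come from the 3′ ends of transcripts, so levels are given as CPM (counts scaled to the size of the library) after TMM scaling, a correction for library composition, and are compared between libraries for a gene but not between genes. Libraries of a group differed widely: 41 to 666 genes were at 0 in a library although the other libraries averaged at least 100 counts. Neuronal markers were present in all 16 libraries. Their summed level over 10 of 10 listed genes ranged from 2894 to 6788 CPM in untreated neurons alone, from 1222 to 6850 in loaded neurons alone, from 960.9 to 2662 in untreated neurons with microglia and from 1101 to 1717 in loaded neurons with microglia. The 12 oligodendrocyte lineage markers went the other way, from 1087 to 3023 CPM without microglia and from 3958 to 9584 with them. The 14 microglial markers summed to 672 CPM in replicate 1 of untreated neurons with microglia and to 1375 in replicate 1 of loaded neurons with microglia, against 11.4 to 74.8 in the other co-cultures and 4.92 to 41.0 without microglia. P2ry12 and Tmem119, which define resident microglia, were at 0 in every library. Fewer cells of a type and less RNA per cell cannot be told apart in such bulk libraries. The labels name no separate cultures or animals behind the libraries of a group, so p-values reflect only the spread seen among them, which may be technical.

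**Figure D1:**
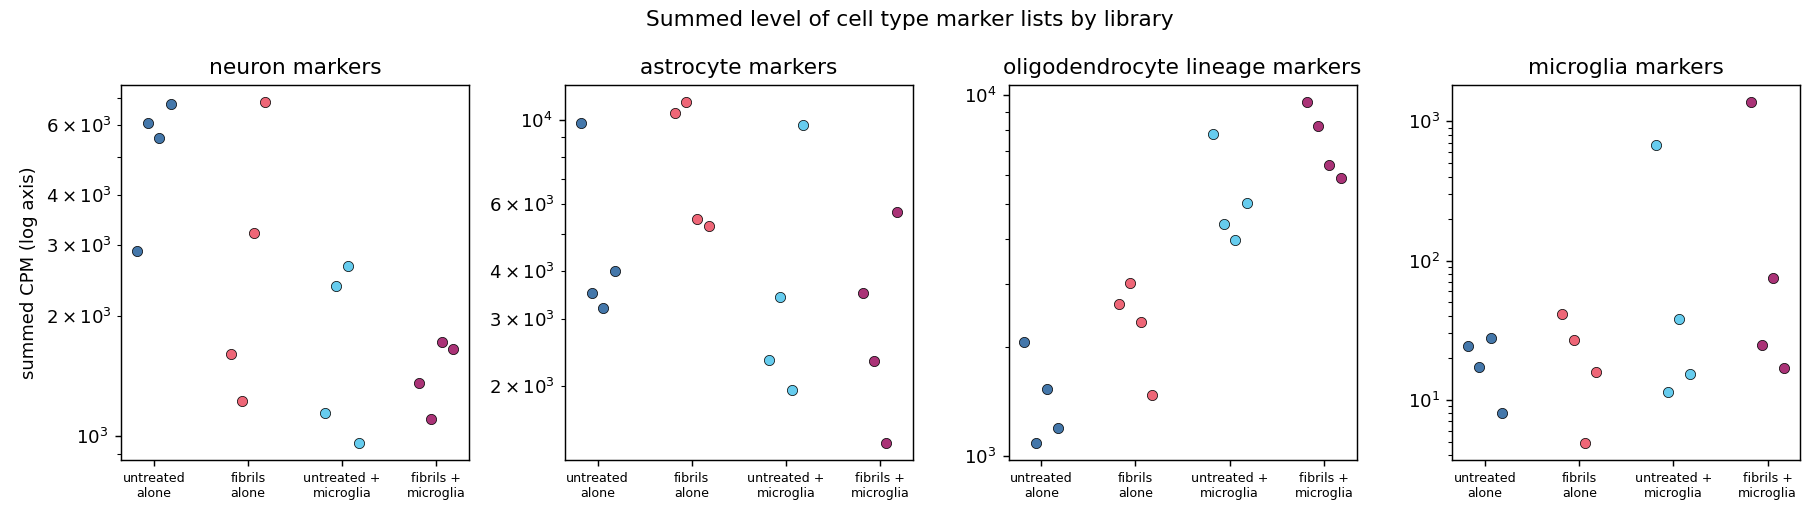
Summed marker levels in CPM (vertical axes, log scale) by library for neurons, astrocytes, oligodendrocyte lineage and microglia, in the 4 groups on the horizontal axis; points are libraries, replicates 1 to 4 from left to right. Neuronal markers reach no more than 2662 CPM in co-culture, and replicate 1 stands apart in both co-cultures for microglial markers, at 672 and 1375 CPM.

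With microglia, 7 of the 10 genes had lower fitted levels on average over untreated and loaded neurons, and the 5 with the smallest p were Ddit3, Atf5, Chac1, Atf4 and Asns. Their levels differed by -0.68 to -1.58 on the log2 scale, yet none of the 10 was called (edgeR's quasi-likelihood test, Benjamini-Hochberg adjusted p under 0.05 over 13139 genes), where 2.19% of all genes were. At an unadjusted p under 0.05 there were 5 of the 10 genes, all lower with microglia, against 8.79% of all genes that were lower at that threshold. The median difference of the 10 genes was -0.88 on the log2 scale, and that of all genes was -0.03. Of all genes edgeR called 288. With DESeq2, 3 of the 10 were called among 1216 genes, with limma-voom 2 among 662, and 2 among 480 with limma on the values normalized by the authors. With replicate number added to the edgeR fit as a block, 2 were called among 366 genes, Atf5 and Chac1. The replicate numbers did not meet the check used for pairing. Loading with fibrils gave a different picture: Atf5 stood highest in loaded neurons alone, with Eif4ebp1, Psat1 and Phgdh also higher there on average, and none of these was called by edgeR. Trib3 (0.81 ± 2.31, SE) and Ddit3 (0.18 ± 0.50) also had fibril estimates above 0 on the log2 scale in neurons alone. Below 0 were 4 of the 10, Sesn2 (-2.29 ± 2.01), Chac1 (-0.52 ± 0.76), Asns (-0.14 ± 0.50) and Atf4 (-0.07 ± 0.36), against 52.4% of all genes.

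**Figure D2:**
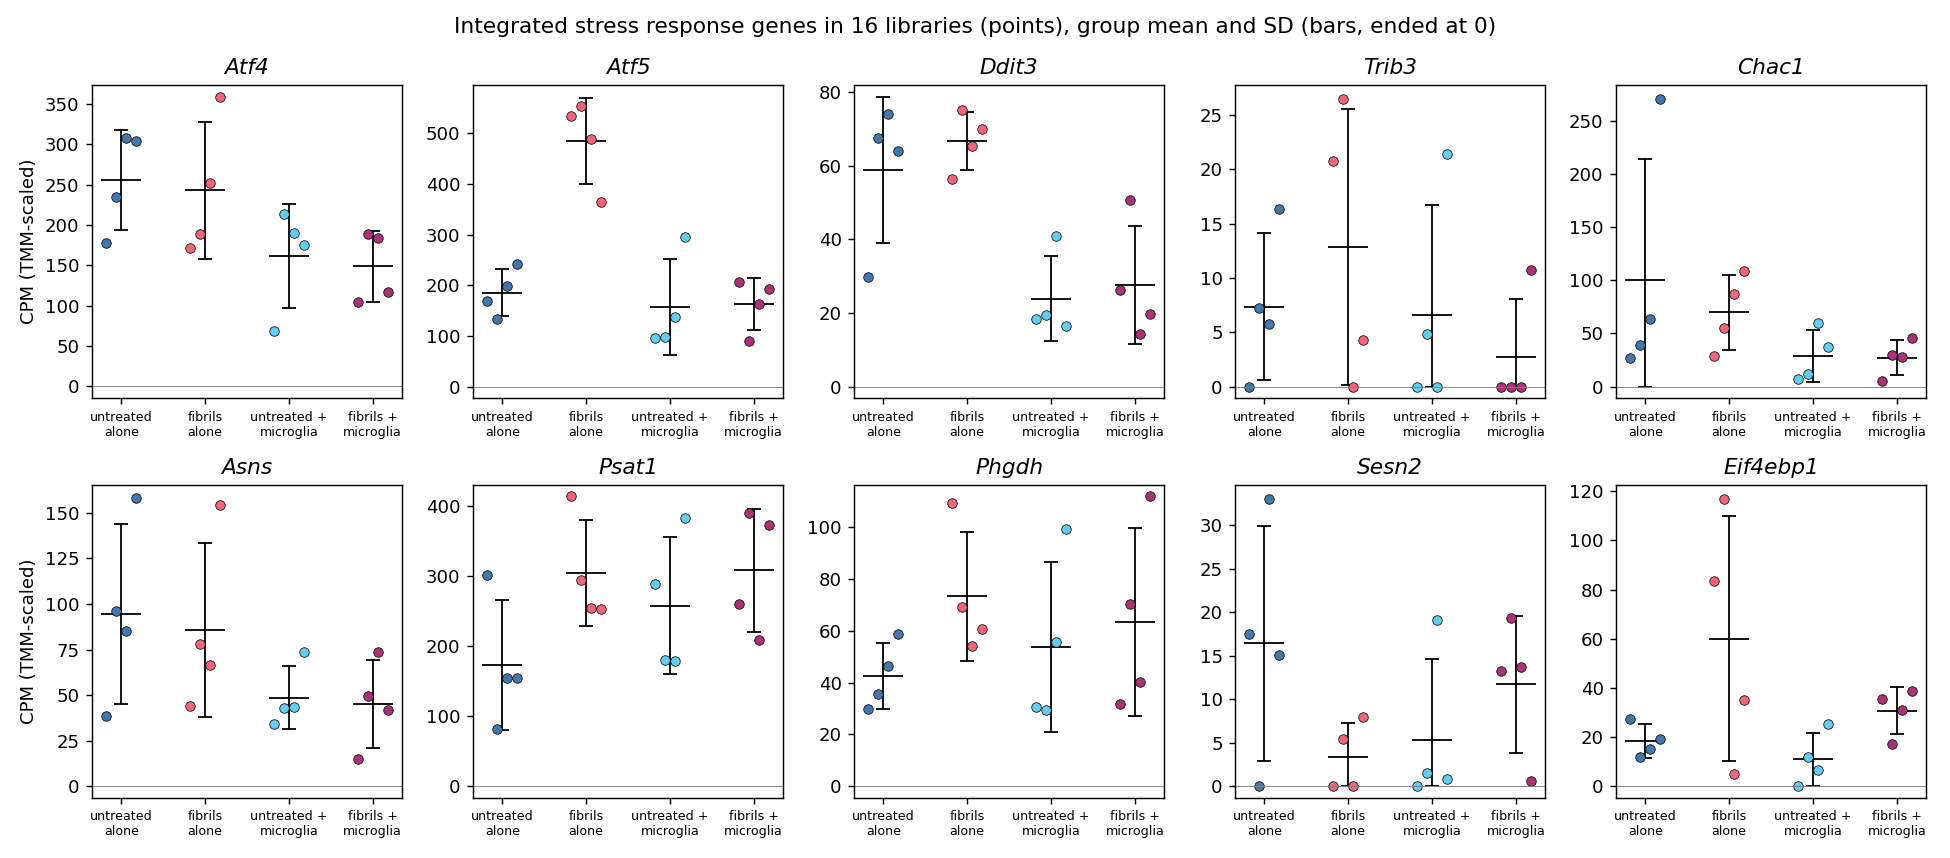
Level of each of the 10 genes in CPM (vertical axes, linear) in each of the 16 libraries, by group on the horizontal axis; points are libraries, replicates 1 to 4 from left to right, with the group mean and SD as bars that end at 0. The 4 libraries of loaded neurons alone lie above all others for Atf5, at 364 to 553 CPM, and Ddit3 is no higher than 50.6 CPM in the co-cultures.

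Atf4 (chromosome 15, 80255184 to 80257541, GRCm38) encodes the central transcription factor of the response. Its level was 177, 234, 308 and 304 CPM in replicates 1 to 4 of untreated neurons alone, and 172, 189, 252 and 359 CPM in loaded neurons alone. With microglia it was 68.7, 213, 190 and 175 CPM in untreated neurons and 105, 189, 184 and 117 CPM in loaded neurons. All 8 co-cultures lay below the median of the 8 libraries without microglia, though the ranges overlapped, with 3 of them below the lowest of the others. Averaged over both kinds of neuron, Atf4 differed by -0.68 ± 0.25 (SE) on the log2 scale with microglia (adjusted p = 0.165, edgeR). The difference was -0.66 ± 0.36 without fibrils and -0.71 ± 0.36 with them (adjusted p = 0.647 and 0.454, edgeR). Group means with and without fibrils lay within 1 SD of each other, at 256 ± 62.4 (SD, n = 4) and 243 ± 84.9 CPM alone and at 162 ± 64.1 and 149 ± 43.9 CPM with microglia.

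Ddit3 (chromosome 10, 127290774 to 127296288) encodes CHOP, a transcription factor downstream of ATF4 that is tied to cell death under lasting stress. Without microglia it measured 29.9, 67.5, 74.0 and 63.9 CPM in untreated neurons and 56.4, 75.2, 65.4 and 69.9 CPM in loaded neurons. With microglia it measured 18.6, 19.6, 41.0 and 16.5 CPM in untreated neurons and 26.3, 50.6, 14.4 and 19.7 CPM in loaded neurons. Replicate 1 of untreated neurons alone was the only library without microglia within the range of the co-cultures: 7 of 8 lay above the highest co-culture, and 6 of 8 co-cultures lay below the lowest library without microglia. Averaged over both kinds of neuron, the difference was -1.28 ± 0.36 on the log2 scale, a level 0.411 times that without microglia (adjusted p = 0.0587, edgeR). The adjusted p was 0.00387 with DESeq2, 0.0447 with limma-voom and 0.0382 with limma on the authors' values. In edgeR the difference was -1.30 ± 0.51 in untreated and -1.27 ± 0.51 in loaded neurons (adjusted p = 0.461 and 0.342, edgeR). Without replicate 1 of untreated neurons alone, replicate 3 of untreated neurons with microglia or replicate 2 of loaded neurons with microglia, the averaged difference had adjusted p = 0.0395, 0.0416 and 0.0440 (edgeR). Of the 16 fits with 1 library left out, only these 3 called Ddit3. Among all 25 alternative settings 6 called it, and adjusted p reached 0.134 (edgeR) in the others. Loaded and untreated neurons alone averaged 66.7 ± 7.93 and 58.8 ± 19.8 CPM (SD, n = 4), a gap smaller than the spread. The annotation holds a second, overlapping model of Ddit3 on the same strand, and the table has 1 entry for the symbol. Ddit3 also overlaps genes on the opposite strand over 68 and 15 bases, and the strand setting of the count is not given in the sources used here.

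Atf5 (chromosome 7, 44812256 to 44816658) encodes a close relative of ATF4 that is also translated under eIF2 phosphorylation and is known for its part in the mitochondrial unfolded protein response. In loaded neurons alone it measured 534, 553, 490 and 364 CPM. In untreated neurons alone it measured 169, 134, 199 and 242 CPM. With microglia the values were 96.6, 99.0, 137 and 296 CPM in untreated neurons and 206, 90.7, 163 and 193 CPM in loaded neurons. The 4 libraries of loaded neurons alone thus lay above the other 12, which 0.205% of the tested genes (27 of 13139) also did, while the other 3 groups overlapped. In order of their means the groups were loaded neurons alone (485 ± 84.9 CPM, SD, n = 4), untreated neurons alone (186 ± 45.6), loaded neurons with microglia (163 ± 51.6) and untreated neurons with microglia (157 ± 94.4), and the last 3 did not differ beyond their spread.

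Fibrils in neurons alone went with an Atf5 difference of 1.38 ± 0.36 on the log2 scale (95% interval 0.63 to 2.14), a level 2.61 times that of untreated neurons. It had an unadjusted p of 0.000949 and an adjusted p of 0.532 in edgeR's quasi-likelihood test. No gene was called by edgeR in that comparison, 6.92% of all genes had an unadjusted p under 0.05, and 1.96% were higher in loaded neurons without overlap between the groups. DESeq2 gave Atf5 an adjusted p of 0.0205 there and called 229 genes. In co-culture, fibrils went with an Atf5 difference of 0.05 ± 0.36 (95% interval -0.69 to 0.79; adjusted p = 1.0, edgeR). None of the 10 genes had an unadjusted p under 0.05 there, against 3.68% of all genes. The direction of that small value turned with library totals as scaling, to -0.02. The interaction, the fibril difference with microglia minus that without, was -1.33 ± 0.51 (unadjusted p = 0.0156, adjusted p = 1.0, edgeR), where 4.03% of all genes had an unadjusted p under 0.05.

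Seen from the side of microglia, Atf5 in loaded neurons differed by -1.57 ± 0.37 on the log2 scale between co-culture and culture alone (adjusted p = 0.0840, edgeR), with no overlap between the 2 groups. None of the 10 genes was called there by edgeR, against 0.114% of all genes. At an unadjusted p under 0.05 there were 2, Atf5 and Ddit3, both lower, against 6.26% of all genes that were lower, and 2.91% of all genes were lower in co-culture without overlap. For Atf5 the adjusted p was 0.00202 with DESeq2, which called 603 genes, and 0.0292 with limma-voom, which called 40. Without replicate 4 of untreated neurons with microglia, a library of neither group compared here, it was 0.0434 in edgeR. Only this 1 of 16 fits with 1 library left out called Atf5, and 4 of 26 alternative settings did in all. In untreated neurons the Atf5 difference was -0.24 ± 0.36 (adjusted p = 0.999, edgeR). Averaged over both kinds it was -0.91 ± 0.26 (adjusted p = 0.0602, edgeR), and without that same replicate 4 it was -1.16 with adjusted p = 0.0121 (edgeR). That was again the only call in 16 fits with 1 library left out. This fibril comparison and this microglia comparison share the loaded neurons alone, so a high level in that group enters both.

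Astrocyte and neuronal markers differed among the same libraries. The 11 astrocyte markers summed to 10420, 11130, 5473 and 5247 CPM in replicates 1 to 4 of loaded neurons alone, against 9781, 3507, 3211 and 4015 CPM in untreated neurons alone. Neuronal markers summed to 1598, 1222, 3216 and 6850 CPM in loaded and to 2894, 6083, 5575 and 6788 CPM in untreated neurons alone. Replicates 1 and 2 of loaded neurons alone, the highest for Atf5, were thus the highest of the group for astrocyte markers and the lowest for neuronal markers. In untreated neurons alone, replicate 1, whose astrocyte sum was close to theirs, had an Atf5 level of 169 CPM. Among the co-cultures, replicate 4 of untreated neurons had both the highest astrocyte sum, 9697 CPM, and the highest Atf5 level, 296 CPM. In loaded neurons alone, replicate 4, with the highest neuronal sum, had an Atf5 level of 364 CPM, still above all 12 libraries of the other groups. The part of these cell types in the Atf5 result was not tested. Atf5 overlaps Il4i1 over 272 bases and Nup62 over 571 bases on the opposite strand, and the strand setting of the count is not given in the sources used here, so reads of these genes may not be told apart in the shared stretches.

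Chac1 (chromosome 2, 119351229 to 119354381) encodes an enzyme that breaks down glutathione and is a well known target of ATF4. Its level was 26.5, 39.0, 64.0 and 271 CPM in untreated neurons alone and 28.7, 54.9, 87.0 and 109 CPM in loaded neurons alone. With microglia it was 7.22, 11.7, 59.8 and 37.1 CPM in untreated neurons and 5.68, 29.6, 27.6 and 45.5 CPM in loaded neurons. Among the 8 co-cultures, 7 lay below the median of the libraries without microglia, while the ranges overlapped. The averaged difference with microglia was -1.58 ± 0.55 on the log2 scale, 0.335 times the level without microglia (adjusted p = 0.141, edgeR). DESeq2 gave adjusted p = 0.0438. With replicate number as a block the averaged difference was -1.57 ± 0.36 (adjusted p = 0.0199, edgeR). Of 25 alternative settings only these 2 called it. Without replicate 4 of untreated neurons alone, the library at 271 CPM, the averaged difference was -0.97. In untreated neurons the difference was -1.79 ± 0.78 (adjusted p = 0.504, edgeR) and became -0.56 without that library. In loaded neurons it was -1.37 ± 0.77 (adjusted p = 0.528, edgeR). Between untreated neurons with and without microglia none of the 10 genes was called by edgeR or DESeq2, against 0.122% of all genes by edgeR. At an unadjusted p under 0.05 there were 2, Ddit3 and Chac1, both lower, against 4.51% of all genes that were lower.

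Asns (chromosome 6, 7675169 to 7693254) encodes asparagine synthetase, which makes asparagine and is switched on by ATF4 when amino acids run short. It measured 38.4, 96.1, 85.0 and 158 CPM in untreated and 44.3, 77.8, 66.5 and 154 CPM in loaded neurons alone. With microglia it measured 34.0, 42.9, 43.4 and 73.6 CPM in untreated and 15.1, 49.5, 73.5 and 42.0 CPM in loaded neurons. All 8 co-cultures were below the median of the libraries without microglia, and 5 of 8 libraries without microglia were above the highest co-culture. The averaged difference was -0.95 ± 0.36 on the log2 scale (adjusted p = 0.177, edgeR), at -0.96 ± 0.51 in untreated and -0.93 ± 0.51 in loaded neurons. Means with fibrils lay within 1 SD of those without, at 85.7 ± 47.8 against 94.4 ± 49.3 CPM alone and 45.03 ± 24.0 against 48.5 ± 17.3 CPM with microglia (SD, n = 4).

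The lower levels of Atf4, Ddit3, Atf5, Chac1 and Asns with microglia came from libraries in which the neuronal markers were lower too. The mean summed level of the 10 neuronal markers was 4278 ± 2312 CPM (SD, n = 8) without and 1620 ± 616 CPM with microglia. The 6 markers of excitatory neurons, all detected, ranged from 252.5 to 2198 CPM without and from 30.9 to 775 CPM with microglia. In loaded neurons alone, replicates 1 and 2 had neuronal sums of 1598 and 1222 CPM, within the range of the co-cultures. Their levels of Atf4 (172 and 189 CPM) and Chac1 (28.7 and 54.9 CPM) also lay within the co-culture range of each gene. Asns lay within it in replicate 1 (44.3 CPM) and above it in replicate 2 (77.8 CPM). Ddit3 (56.4 and 75.2 CPM) and Atf5 (534 and 553 CPM) lay above all co-cultures. The part of the neuronal share in these differences was not tested. Without replicate 1 of both co-cultures, the libraries rich in microglial transcripts, the averaged differences were -1.21 for Ddit3, -0.88 for Atf5, -1.24 for Chac1, -0.49 for Atf4 and -0.73 for Asns.

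**Figure D3:**
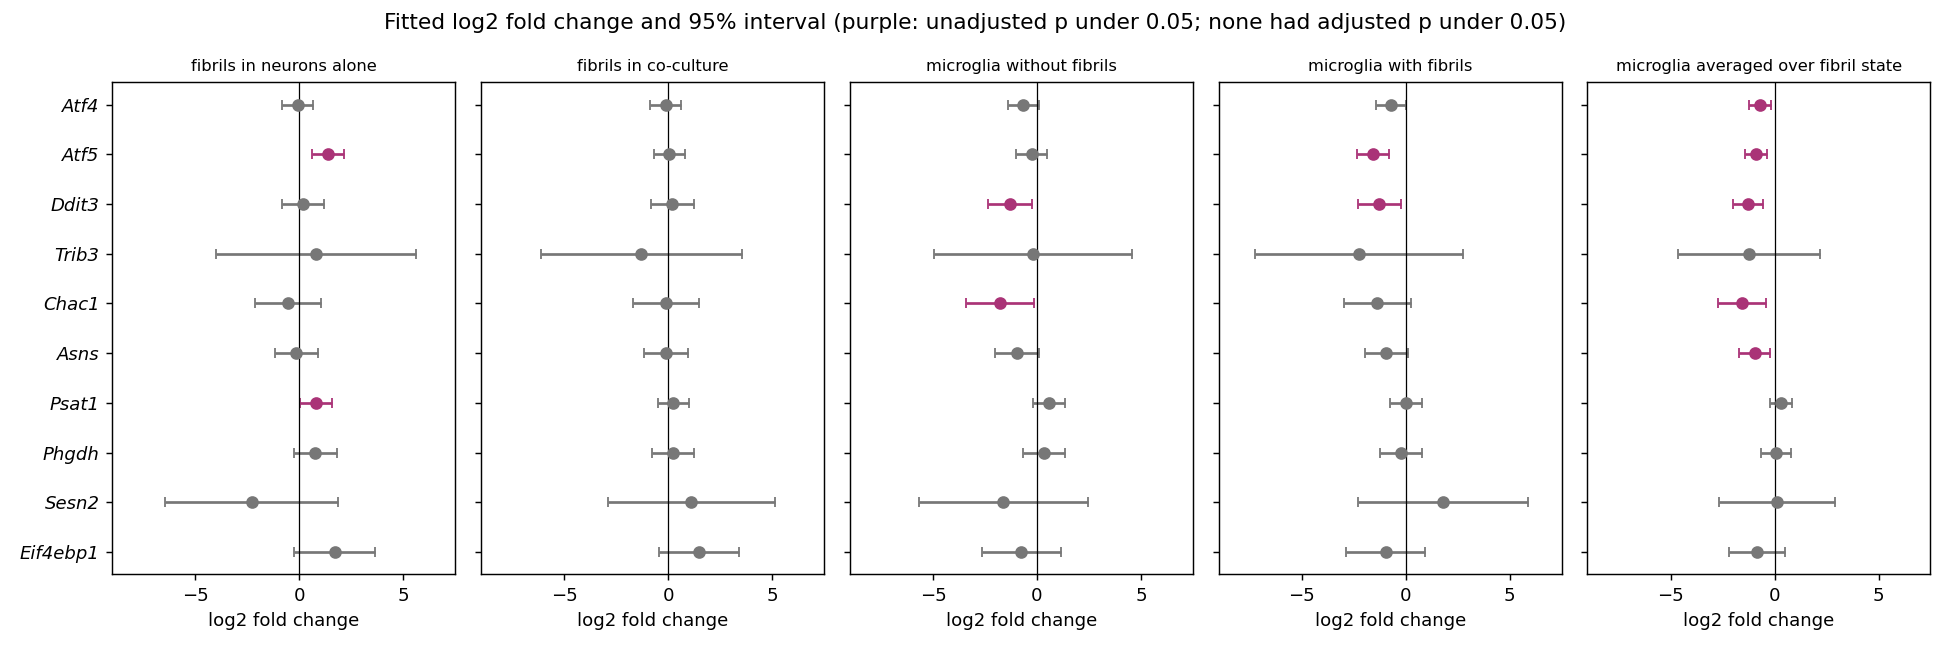
Fitted log2 fold changes (horizontal axes) of the 10 genes (vertical axis) with 95% intervals as lines, for fibrils alone and in co-culture and for microglia without fibrils, with fibrils and averaged; purple marks an unadjusted p under 0.05. In the averaged microglia comparison 7 estimates lie below 0, down to -1.58 for Chac1, and the fibril estimate for Atf5 is 1.38 alone and 0.05 in co-culture.

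Eif4ebp1 (chromosome 8, 27260329 to 27276674) encodes 4E-BP1, a brake on cap-dependent translation that ATF4 induces. It measured 27.5, 11.9, 15.2 and 19.1 CPM in untreated neurons alone and 83.3, 117, 5.20 and 35.0 CPM in loaded neurons alone. With microglia it measured 11.99, 6.64 and 25.4 CPM in replicates 2 to 4 of untreated neurons, with a single read in replicate 1, and 35.6, 17.3, 31.1 and 38.9 CPM in loaded neurons. In all, 6 of 8 loaded libraries were above the highest untreated library, while replicate 3 of loaded neurons alone was among the lowest of all. Averaged over both cultures, loaded neurons differed by 1.59 ± 0.66 on the log2 scale (95% interval 0.22 to 2.96; unadjusted p = 0.0247, adjusted p = 0.734, edgeR). At an unadjusted p under 0.05 there were 2 of the 10 genes in this averaged comparison, Eif4ebp1 and Atf5, both higher, against 3.58% of all genes that were higher at that threshold. Atf5 differed by 0.72 ± 0.25 there (adjusted p = 0.655, edgeR). No gene was called by edgeR (6.62% had an unadjusted p under 0.05), against 280 by DESeq2, none of them a member. The Eif4ebp1 difference was 1.71 ± 0.94 in neurons alone and 1.48 ± 0.93 in co-culture (adjusted p = 0.811 and 1.0, edgeR). With microglia, averaged, it was -0.85 ± 0.65 (adjusted p = 0.571, edgeR).

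Psat1 and Phgdh encode enzymes of serine synthesis from glucose, a pathway that in the brain is most active in astrocytes and that ATF4 raises. Psat1 (chromosome 19, 15904678 to 15947337) measured 301, 81.1, 154 and 155 CPM in untreated and 413, 293, 254 and 253 CPM in loaded neurons alone. With microglia it measured 289, 180, 178 and 383 CPM in untreated and 259, 390, 209 and 373 CPM in loaded neurons. In neurons alone only replicate 1 of the untreated group reached into the range of the loaded group. The difference with fibrils was 0.81 ± 0.37 on the log2 scale in neurons alone (95% interval 0.05 to 1.58; unadjusted p = 0.0375, adjusted p = 0.697, edgeR), and 0.54 ± 0.26 averaged over both cultures (adjusted p = 0.749, edgeR). Psat1 and Atf5 were the 2 of 10 genes with an unadjusted p under 0.05 for fibrils in neurons alone, both higher, against 4.03% of all genes. With microglia, Psat1 had an estimate of the opposite sign to Atf4, Chac1 and Asns, an averaged difference of 0.30 ± 0.26 (95% interval -0.24 to 0.83; adjusted p = 0.641, edgeR).

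Phgdh (chromosome 3, 98313170 to 98339990) measured 29.9, 35.7, 46.5 and 58.8 CPM in untreated and 110, 69.2, 54.2 and 60.5 CPM in loaded neurons alone. With microglia it measured 30.5, 29.5, 55.8 and 99.5 CPM in untreated and 31.5, 70.3, 40.1 and 112 CPM in loaded neurons. Replicate 4 was the highest of both co-cultures. The fibril difference was 0.78 ± 0.49 on the log2 scale in neurons alone and 0.51 ± 0.35 averaged (adjusted p = 0.901 and 0.888, edgeR), and the averaged microglia difference was 0.06 ± 0.34 (95% interval -0.65 to 0.78), whose sign changed with the test used. Astrocyte markers were also highest in replicate 4 of both co-cultures, at 9697 CPM in untreated and 5736 CPM in loaded neurons, against 1418 to 3505 CPM in the other co-cultures. For Psat1, the untreated library alone with the highest level, replicate 1, had the highest astrocyte sum of its group. The part of astrocytes in the Psat1 and Phgdh values was not tested. The last 500 bases of Phgdh match 12 annotated processed pseudogenes over at least 100 bases at 95% identity or more, of which 1, Gm8096, is in the count table, so its counts are uncertain.

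Trib3 and Sesn2 were absent from some libraries and well counted in others of the same group. Trib3 (chromosome 2, 152337422 to 152344032) encodes a pseudokinase that binds ATF4 and damps it. It had a count of 0 in 7 of 16 libraries, where a count of 0 allows up to 3 reads, and up to 226 reads in the others. It measured 0, 7.28, 5.78 and 16.4 CPM in untreated neurons alone, 20.8, 26.5, 0 and 4.32 CPM in loaded neurons alone, 0, 4.79, 0 and 21.4 CPM in untreated neurons with microglia, and 0, 0, 0 and 10.8 CPM in loaded neurons with microglia. Each group held libraries at 0 and libraries with reads, and the averaged difference with microglia was -1.21 ± 1.65 on the log2 scale (adjusted p = 0.815, edgeR). Without replicate 4 of loaded neurons with microglia, whose other 3 libraries are at 0, the fitted value was -5.06, which depends on the prior count. Sesn2 (chromosome 4, 132492032 to 132510501) encodes sestrin 2, a leucine sensor that holds back the growth kinase complex mTORC1. It had a count of 0 in 4 libraries, fewer than 10 reads in 6 and up to 257 reads in the others, and it overlaps the annotated RNA Gm12981 on its own strand over 6089 bases. Its levels were 17.6, 0, 33.0 and 15.1 CPM in untreated and 0, 5.38, 0 and 7.96 CPM in loaded neurons alone, and 0, 1.55, 19.2 and 0.80 CPM in untreated and 13.2, 19.3, 13.7 and 0.57 CPM in loaded neurons with microglia. The averaged microglia difference was 0.10 ± 1.35 (95% interval -2.69 to 2.89; adjusted p = 0.995, edgeR), with a sign that changed when single libraries were left out. Neither gene had an unadjusted p under 0.05 in any of the 7 comparisons (edgeR).

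Across the 16 libraries, Atf4, Chac1 and Asns went up and down together. Of 45 pairs among the 10 genes, 3 passed the 0.05 threshold for both Pearson's r and Spearman's rho of log2 CPM in permutation tests (100000 resamples, two-sided, adjusted over the pairs). Libraries were exchanged freely across groups and replicates. Differences shared by the genes between groups or between replicates thus enter these p-values, which do not test agreement within groups. Chac1 and Asns had r = 0.833 and rho = 0.759 (adjusted permutation p = 0.00585 and 0.0211, raw p = 0.00013 and 0.00102). Atf4 and Asns had r = 0.785 and rho = 0.759 (adjusted permutation p = 0.00877 and 0.0211, raw p = 0.00039 and 0.00092). Atf4 and Chac1 had r = 0.768 and rho = 0.747 (adjusted permutation p = 0.00900 and 0.0211, raw p = 0.00060 and 0.00141). Without the 2 libraries farthest from the median of the gene named first, r was 0.669, 0.801 and 0.669 for these 3 pairs in that order. After the group means were subtracted, r was 0.763, 0.675 and 0.640.

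All 3 genes were lowest in replicate 1 of every group. Those libraries also had the highest share of counts from Rn45s, the ribosomal RNA precursor, within each group: 26.8% and 21.9% in untreated and loaded neurons alone and 13.2% and 18.5% with microglia, against at most 15.1%, 18.4%, 12.9% and 16.5% in the other replicates. Replicate 1 of both co-cultures was the microglia-rich library as well. Excitatory neuron markers also had their lowest sum in replicate 1 of untreated neurons alone (1018 CPM) and of both co-cultures (100 and 30.9 CPM). In loaded neurons alone replicate 1, at 453 CPM, was above replicate 2, at 252.5 CPM. The part of any of these in the correlations was not tested. Correlations were also taken over the 12 libraries of replicates 2 to 4 after the group means were subtracted. There r was 0.417 for Chac1 and Asns, 0.492 for Atf4 and Asns, and 0.124 for Atf4 and Chac1. All 3 pairs were thus lower within groups without the replicate 1 libraries, the last one most, and these values were not tested. A single replicate number holds 4 libraries, too few for a correlation of its own. Over all 45 pairs r ranged from -0.433 to 0.833 with a median of 0.312. Atf4 and Ddit3 had r = 0.645 and rho = 0.650 (adjusted permutation p = 0.0594 for both), and Atf4 and Atf5 had r = 0.317 and rho = 0.121 (adjusted permutation p = 0.440 and 0.801). Atf4 and Psat1 went in opposite directions, with r = -0.433 and rho = -0.656 (adjusted permutation p = 0.234 and 0.0594).

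**Figure D4:**
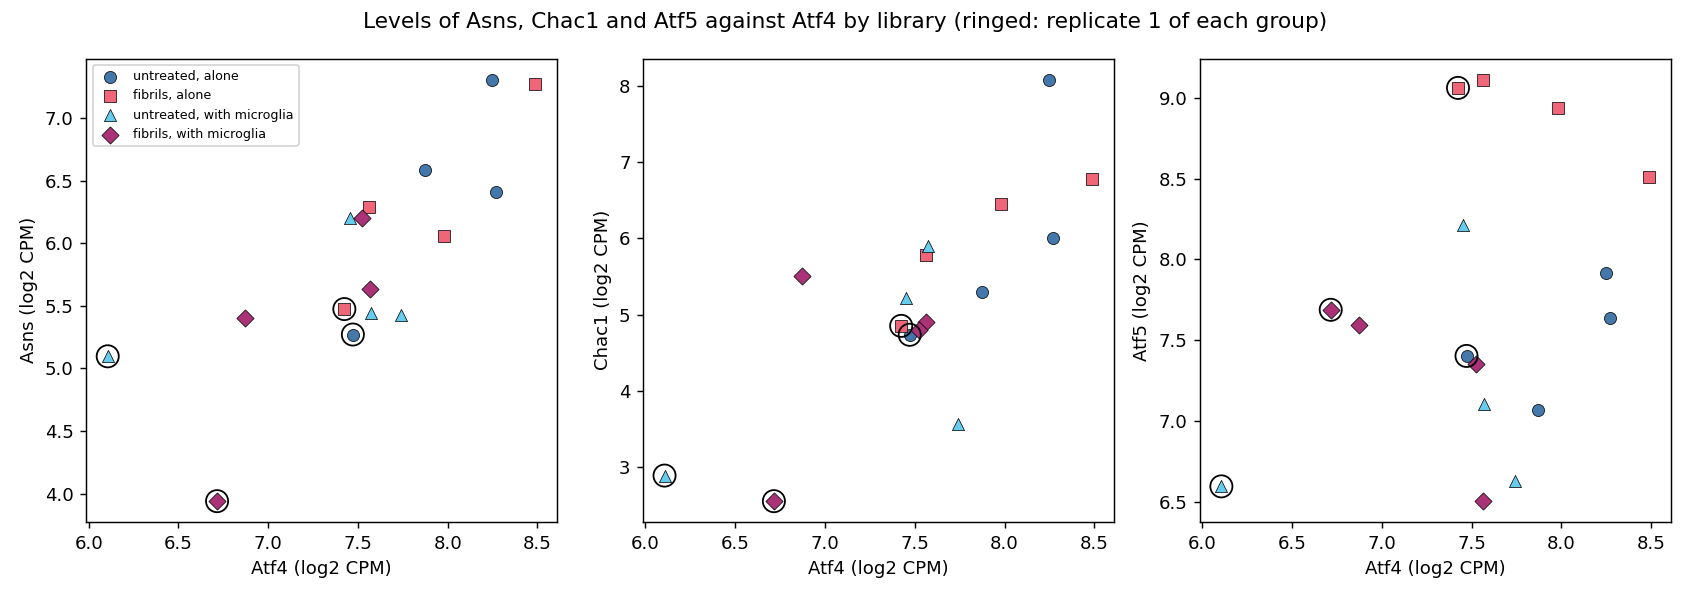
Levels of Asns, Chac1 and Atf5 (vertical axes, log2 CPM) against Atf4 (horizontal axes, log2 CPM) in the 16 libraries; colours and shapes mark the 4 groups and rings mark replicate 1 of each. Asns and Chac1 climb with Atf4 (r = 0.785 and 0.768) with ringed libraries at the lower end, and the 4 libraries of loaded neurons alone stand above the others for Atf5 at any level of Atf4.

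The genes whose levels followed a member most closely over the 16 libraries were found by Spearman's rho of log2 CPM among 6473 genes with a mean log2 CPM of at least 4, as a description. For Atf4 these were Eml2 (0.915), Lonrf1 (0.912) and Homer1 (0.909), the last of which encodes a scaffold of excitatory synapses. For Chac1 they were Adora1 (0.924), the gene of an adenosine receptor, Tmem179 (0.888) and Atxn1 (0.868), and for Asns Reep2 (0.903), Tmem179 (0.862) and Ppp3r1 (0.853), a calcineurin subunit. Tmem179 thus stood near both. Ddit3 was followed by Hcfc1r1 (0.909), Mapk8ip1 (0.847) and Ttl (0.835), and Atf5 by Ezr (0.888), AI413582 (0.885) and 2310061I04Rik (0.882). For Psat1 they were Agpat5 (0.900), Ednrb (0.871), a receptor gene that astrocytes express, and Aldh1a1 (0.856). The highest values for the remaining members were for Phgdh Atp5b (0.782), for Eif4ebp1 Cyb5b (0.844), for Sesn2 Arf2 (0.839) and for Trib3 Slc6a11 (0.850). The last 2 rest on members with many low counts. For every member, these values are the upper end of many genes searched.

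Other genes of the pathway were grouped by role, and edgeR called none of them in any of the 7 comparisons. Upstream of Atf4, 18 genes of the eIF2 kinases, eIF2, its exchange factor eIF2B and their regulators were split, with 8 higher and 10 lower on average with microglia and a median of -0.04 on the log2 scale. Ppp1r15a, the stress-induced subunit that directs a phosphatase to eIF2, averaged 58.4 ± 23.2 CPM in untreated and 50.01 ± 25.7 in loaded neurons alone, and 26.8 ± 25.4 and 21.4 ± 18.9 CPM with microglia (SD, n = 4). Eif2s3x, a subunit of eIF2, averaged 101 ± 59.5 and 73.6 ± 35.0 CPM alone and 52.9 ± 55.3 and 40.9 ± 24.4 CPM with microglia. None of these 18 genes had an unadjusted p under 0.05 in that averaged comparison.

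Downstream lists leaned lower with microglia without any call. All 5 other transcription factors of the response had estimates below 0, with a median of -0.59 on the log2 scale. One of them, Nupr1, a stress-induced chromatin protein, averaged 17.1 ± 9.28 and 23.0 ± 19.2 CPM alone and 4.26 ± 3.89 and 1.79 ± 2.50 CPM with microglia. Of 9 amino acid transporters, 8 were lower, with a median of -0.71. Slc3a2, the heavy chain of several transporters, averaged 895 ± 236 and 1578 ± 859 CPM alone and 675 ± 383 and 469 ± 304 CPM with microglia (adjusted p = 0.114, edgeR). Slc38a2, a neutral amino acid transporter, was the exception, at 114 ± 48.2 and 99.4 ± 54.3 CPM alone and 144 ± 60.1 and 237 ± 29.5 CPM with microglia (adjusted p = 0.166, edgeR).

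Enzymes and tRNA synthetases also had mostly lower estimates. Of 13 genes for tRNA synthetases and the tRNA exporter Xpot, 10 were lower, with a median of -0.36, and Nars, which charges the tRNA for asparagine, averaged 632 ± 411 and 650 ± 203 CPM alone and 401 ± 196 and 332 ± 33.6 CPM with microglia (adjusted p = 0.218, edgeR). Of 10 further enzymes of serine, one-carbon and proline metabolism, 8 were lower, with a median of -0.39. Gpt2, a mitochondrial alanine transaminase, was higher, at 65.5 ± 24.6 and 89.4 ± 37.1 CPM alone and 138 ± 72.8 and 138 ± 78.5 CPM with microglia (adjusted p = 0.177, edgeR). Of 4 secreted and regulatory proteins of the response, 3 were lower, among them Gdf15, a stress hormone, at 16.6 ± 7.55 and 22.1 ± 12.4 CPM alone and 3.40 ± 3.21 and 7.90 ± 7.24 CPM with microglia. Over all genes 51.4% had an estimate below 0 in this comparison, and the neuronal markers given above were lower in the same libraries.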

How the data were processed

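Messenger RNA was measured in 16 libraries, 4 per group, with the QuantSeq forward kit for 3′ ends, per the labels' protocols. The submitters' processing notes name STAR, Partek, DESeq2 and the assembly mm10, without versions or roles. No source used here gives the counting tool, its strand setting or the annotation. One table deposited by the authors holds raw counts for each gene symbol. In a second deposited table the authors' normalized values, a score rounded to whole numbers, were within 0.6 of a library constant times the raw count in 99.98% of cases.

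Counts were fitted in R 4.3.3 with edgeR 4.0.16 (filterByExpr with minimum count 10 and minimum total 15, leaving 13139 of 16934 genes and all 10 members, TMM, robust quasi-likelihood, 1 mean per group). Calls required an adjusted p (Benjamini-Hochberg, over all tested genes) under 0.05. Standard errors are the log2 difference over the square root of F, and log2 CPM used a prior count of 2. Groups came from the treatment label and replicate numbers from accession order. Contrasts were fibrils and microglia in each state of the other, their interaction and their averages. The members, gene lists, averaged contrasts and marker lists were chosen with earlier results of these data known. Named genes were the 10 members and up to 3 genes most like each member. No gene of a pathway list was called, so 1 or both of the 2 genes with the smallest p in the averaged microglia contrast were named. Alternatives were DESeq2 1.42.0, limma 3.58.1 (voom, and log2 of the authors' score plus 1), other scalings and filters, a replicate block and libraries left out. Fits were tested on simulated data. Positions are GENCODE's on GRCm38, near copies were found with BLAST 2.17.0, and Python 3.11.15 with pandas 2.3.3 and matplotlib 3.10.9 made tables and plots. Reads without molecular identifiers are not independent molecules, so a count of 0 limits counting error only.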

Additional observations from a re-analysis of the deposited data

Results flagged for a closer look

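Among the 40 sets of 4 libraries (10 genes in 4 groups), 4 held a library whose gap to the nearest of the others, divided by the range, exceeded Dixon's critical value of 0.829. Chance gives about 1 in 20 such sets. Ddit3 in untreated neurons alone was at 29.9 CPM in replicate 1 and at 63.9 to 74.0 CPM in the other 3. Trib3 in loaded neurons with microglia was at 10.8 CPM in replicate 4 and at 0 in the other 3. Sesn2 was at 0 CPM in replicate 2 of untreated neurons alone, against 15.1 to 33.0 CPM, and at 0.572 CPM in replicate 4 of loaded neurons with microglia, against 13.2 to 19.3 CPM.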

How the results depend on the processing

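Of 791 values of the 31 member differences under other settings, 753 kept their direction and their side of the threshold. Another 18 became called and 20 changed sign, 13 of these when 1 library was left out, and the cause was not tested. None of the 31 was called in the main fit, so no call could be lost. Some settings also left out a library of a group that was not compared. Members called numbered 1 with DESeq2 for fibrils in neurons alone, and 1 with DESeq2, 1 with limma-voom and 0 to 1 with single libraries left out for microglia with fibrils. For microglia averaged they numbered 3 with DESeq2, 2 with limma-voom, 2 with the authors' values and 0 to 1 with single libraries left out. The averaged Phgdh difference with microglia was -0.073 with limma-voom and -0.0706 with the authors' values, and -0.18 to 0.20 with single libraries left out, and that of Sesn2 was -1.29 to 0.54. The Atf5 difference with fibrils in co-culture was -0.021 with library totals, -0.27 without both libraries rich in microglial transcripts, -0.27 without replicate 1 of every group (a setting chosen after seeing the data), and -0.12 to 0.56 with single libraries left out. Library totals moved the median of all genes in the averaged microglia comparison from -0.03 to 0.18 on the log2 scale, and 7 of the 10 genes were below 0 under each scaling.

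Genes called over the whole table numbered 0 to 7 for fibrils in neurons alone, 0 to 39 for microglia without fibrils, 1 to 27 for microglia with fibrils, 158 to 333 for microglia averaged and 0 to 1 for fibrils averaged, with single libraries left out. DESeq2 called 229, 379, 603, 1216 and 280 in these comparisons, 180 for fibrils in co-culture and 233 for the interaction, where edgeR called 0. Without fibrils, microglia gave 92 with limma-voom, 50 with library totals, 26 without the filter, 35 with the authors' values, 1 with the contrast's groups alone, 0 without both microglia-rich libraries and 5 without replicate 1 of every group. With fibrils they gave 40 with limma-voom, 31 with library totals, 26 without the filter, 0 with the contrast's groups alone and 32 without replicate 1 of every group. Averaged, they gave 662 with limma-voom, 480 with the authors' values and 152 without both microglia-rich libraries.

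Replicate numbers did not meet the check used for pairing. In deviations from the group means, same-numbered libraries correlated at -0.111 to 0.217 (median 0.043) and others at -0.226 to 0.155 (median -0.013). Of the 16 libraries, 9 correlated best with a library of their own number, which 3 of the 12 libraries of other groups hold. Sorted by the codes in their titles, the libraries form 4 runs that match these numbers, with 1 library of each group per run, but the labels do not say that a run marks a shared culture. With the replicate block, 38 genes were called for microglia without fibrils, 42 with fibrils and 366 averaged; members called were 1 with fibrils (Atf5, adjusted p = 0.0410, edgeR) and 2 averaged (Atf5, 0.0293, and Chac1, 0.0199), Phgdh averaged was -0.0778 and Sesn2 -0.46. All 10 members passed the filter, so the alternative for filtered members was not run.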

Other observations

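The paralogs of the members mostly had estimates of the opposite sign to the members with microglia, with 6 of 8 tested higher on average and a median difference of 0.63 on the log2 scale, and none called by edgeR. Trib2, a relative of Trib3, averaged 106 ± 10.3 CPM in untreated and 192 ± 59.9 in loaded neurons alone, and 187 ± 59.9 and 266 ± 108 CPM with microglia (SD, n = 4; adjusted p = 0.179 for the averaged microglia difference, edgeR). Eif4ebp2, the main 4E-BP gene of the brain, averaged 66.8 ± 21.5 and 94.8 ± 45.1 CPM alone and 117 ± 23.2 and 131 ± 84.6 CPM with microglia. The other arms of the unfolded protein response were split, with 5 of 11 genes higher and 6 lower and a median of -0.09. Among them the chaperone gene Hsp90b1 averaged 396 ± 84.6 and 269 ± 106 CPM alone and 362 ± 88.2 and 510 ± 86.7 CPM with microglia.

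Atf4, Chac1 and Asns were each lowest in replicate 1 of all 4 groups, which 121 of 13139 tested genes (0.921%) also were. Replicate 1 holds the lowest library codes of each group in the titles, had the highest Rn45s share of its group in all 4 groups (13.2% to 26.8%), and was the microglia-rich library of both co-cultures. Its excitatory neuron marker sum was also the lowest of its group, except in loaded neurons alone. The part of these in the pattern was not tested. Against the other 3 replicates, with groups kept as terms, Chac1 differed by -2.02 ± 0.46 on the log2 scale (adjusted p = 0.188, edgeR), Asns by -1.24 ± 0.37 (adjusted p = 0.282) and Atf4 by -0.83 ± 0.27 (adjusted p = 0.340), in a comparison chosen after the values were seen. It called 6 of 13139 genes, none of them a member.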
